A study of Mus musculus with 2 samples.

Results

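Imprinted genes are expressed mainly or only from the allele inherited from 1 parent. The 43 genes described here were chosen by name as known imprinted genes of the mouse, by a rule that uses no measured value, and 42 of them were listed among the 22740 genes of the main expression table. By textbook knowledge 19 of the 43 are expressed from the maternal allele and 24 from the paternal allele. RNA was sequenced from the whole uterus of 2 C57BL/6 mice on day 4 of pregnancy, labelled WT, with 1 library per animal and no other group, treatment or genotype. Uterus 1 and uterus 2 stand for the libraries titled WT1 and WT2. Both animals carry the same inbred strain label and the tables give 1 value per gene, so the data hold no information on which allele the RNA came from, and "maternally expressed" and "paternally expressed" are background classes throughout. For 11 members imprinting was classed as limited to a single isoform or a few tissues (Copg2, Ube3a, Gnas, H13, Inpp5f, Ddc, Tspan32, Cd81, Grb10, Ascl2 and Kcnq1), and the uterus was not tested for it.

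Most imprinted genes lie in clusters. In a typical cluster a control region is methylated on the DNA of 1 parental allele, and a long non-coding RNA transcribed from the unmethylated allele, or an insulator on it, silences neighbouring genes. Many paternally expressed members promote growth and many maternally expressed members restrain it, and the best known sites of action are the fetus, the placenta and the brain. The zinc finger protein ZFP57 holds methylation at control regions by binding the methylated letters TGCCGC, together with its partner TRIM28.

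Promoter sequences were searched for letters that members hold more often than other genes, beyond the rule that chose them. RefSeq windows on GRCm38.p6, from 250 bases before to 50 bases after a transcript start, existed for 35 of the 43 members, 50 windows in all. TGCCGC, on either strand, was in at least 1 window of 11 of the 35 members (31.4%), against 13.1% of 27025 genes in the same table. By parental class it was in 7 of 19 paternally expressed and 4 of 16 maternally expressed members. By window it was in 24% of the members' 50, against 11.6% of all 32851. The differences between these shares were not tested. Members' windows were also richer in CpG, with a median of 13.5 CpG sites per window against 7 over all 32851 windows. Among genes with a window of at least 10 CpG sites, the letters were in 10 of 26 members (38.5%), against 24.0% of 12388 genes. The letters AANATGGCG, a core of YY1 sites, were in windows of 2 members (Ube3a and Mkrn3), 5.71% against 2.76% of all genes. A match of letters is a description and not a binding site. The windows below are those with TGCCGC of all 6 paternally expressed members that held the letters and were detected in both uteri, with 1 window shown for each, and of Peg3, which has none, for the comparison with Usp29 that starts on the opposite strand of the same window. Capitals mark TGCCGC or its reverse complement.
Igf2 (chr7:142661222-142661521, minus strand): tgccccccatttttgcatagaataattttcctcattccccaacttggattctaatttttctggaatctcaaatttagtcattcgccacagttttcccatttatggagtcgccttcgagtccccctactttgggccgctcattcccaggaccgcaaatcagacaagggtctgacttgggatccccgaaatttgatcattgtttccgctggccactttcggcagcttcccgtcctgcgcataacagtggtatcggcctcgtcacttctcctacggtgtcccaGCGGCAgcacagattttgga
Mest (chr6:30737800-30738099, plus strand): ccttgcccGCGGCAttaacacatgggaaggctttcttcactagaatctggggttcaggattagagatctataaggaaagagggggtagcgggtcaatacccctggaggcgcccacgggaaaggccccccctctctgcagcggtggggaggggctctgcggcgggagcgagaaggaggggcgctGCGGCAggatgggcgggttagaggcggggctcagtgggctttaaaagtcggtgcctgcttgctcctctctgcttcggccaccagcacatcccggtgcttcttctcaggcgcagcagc
Mcts2 (chr2:152686898-152687197, plus strand): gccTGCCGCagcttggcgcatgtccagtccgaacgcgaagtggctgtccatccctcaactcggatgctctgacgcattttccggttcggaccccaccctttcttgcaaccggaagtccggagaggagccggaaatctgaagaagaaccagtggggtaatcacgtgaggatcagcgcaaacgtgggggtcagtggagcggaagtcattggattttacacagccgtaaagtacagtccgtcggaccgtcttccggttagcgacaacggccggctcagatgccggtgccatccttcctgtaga
Nap1l5 (chr6:58907077-58907376, minus strand): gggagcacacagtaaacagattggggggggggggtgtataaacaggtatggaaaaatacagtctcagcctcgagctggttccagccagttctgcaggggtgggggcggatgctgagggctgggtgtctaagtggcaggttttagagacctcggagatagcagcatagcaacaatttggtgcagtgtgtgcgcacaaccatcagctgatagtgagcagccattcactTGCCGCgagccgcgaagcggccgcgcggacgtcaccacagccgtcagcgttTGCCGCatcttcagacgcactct
Plagl1 (chr10:13090582-13090881, plus strand): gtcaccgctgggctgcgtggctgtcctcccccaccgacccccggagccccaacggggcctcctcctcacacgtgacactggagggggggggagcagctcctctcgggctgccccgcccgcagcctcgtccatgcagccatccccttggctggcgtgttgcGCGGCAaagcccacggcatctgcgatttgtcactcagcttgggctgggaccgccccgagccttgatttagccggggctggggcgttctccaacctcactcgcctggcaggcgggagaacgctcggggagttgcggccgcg
Nnat (chr2:157559828-157560127, plus strand): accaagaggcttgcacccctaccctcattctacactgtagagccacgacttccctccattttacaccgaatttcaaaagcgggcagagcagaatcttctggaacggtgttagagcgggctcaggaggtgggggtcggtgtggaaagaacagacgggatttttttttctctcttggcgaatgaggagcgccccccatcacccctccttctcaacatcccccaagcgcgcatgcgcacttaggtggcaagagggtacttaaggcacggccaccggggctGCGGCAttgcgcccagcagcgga
Peg3 (chr7:6730370-6730669, minus strand): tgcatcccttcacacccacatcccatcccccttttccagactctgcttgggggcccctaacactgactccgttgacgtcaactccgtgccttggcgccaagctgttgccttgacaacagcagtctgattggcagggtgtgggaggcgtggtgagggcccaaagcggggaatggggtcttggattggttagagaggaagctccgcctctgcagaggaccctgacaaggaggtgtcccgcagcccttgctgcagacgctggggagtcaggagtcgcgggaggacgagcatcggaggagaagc
Mest and Nap1l5 each had 2 matches in the window printed, and Igf2, Mcts2, Plagl1 and Nnat had 1 each. Igf2 held the letters in 1 of its 4 windows.

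Values are the authors' RPKM, that is, reads scaled to transcript length and to library size, so that levels can be compared between genes. RPKM is not a count, but the whole reads behind each value were recovered from it up to a common factor, about 3869782 in uterus 1 and 4298903 in uterus 2. This is shallow sequencing: a gene between 1 and 2 RPKM held a median of 13 and 15 reads. Uterine cell types were present, with a summed level of their 4 stroma markers of 3672 and 3453 RPKM, of 4 smooth muscle markers of 1466 and 1441 RPKM and of 4 epithelium markers of 193 and 231 RPKM. Of 6 trophoblast or blastocyst markers 0 were at 1 RPKM in both uteri, Cdx2 was at 0 in both, and the 6 held 24 reads in each library. The 4 neuron markers held 29 and 30 reads, of which Rbfox3, at 1.32 and 1.29 RPKM, held 23 and 25. Both skeletal muscle markers were detected, with a summed level of 80.4 and 92.1 RPKM, mostly of Acta1. Of 3 ovary markers 1 was detected, Star, at 2.93 and 3.87 RPKM. The 2 decidua markers were at 0, and the 2 fat markers held 0 reads in uterus 1 and 1 in uterus 2. In whole tissue, fewer cells of a type and less RNA per cell cannot be told apart.

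Mean levels of the members ran from 0 to 208 RPKM. At a threshold of 1 RPKM in both uteri, 31 of the 42 members (73.8%) were detected, against 58.4% of all genes. Of these, 15 were at 10 RPKM or more in both. The median over all 42 was 4.47 RPKM in uterus 1 and 3.56 RPKM in uterus 2, close to the medians of 3.28 and 3.23 RPKM over all genes. Members listed at 0 in both uteri numbered 3 (Usp29, Snrpn and Magel2), against 23.4% of all genes.

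Over all members in the table, maternally expressed ones had the higher median in both uteri. Among members that overlap no other listed gene, the order of the classes differed between the uteri. Over the 18 maternally expressed members in the table the median was 11.7 RPKM in uterus 1 and 11.5 RPKM in uterus 2, and 15 were detected. Over the 24 paternally expressed members it was 4.01 and 2.24 RPKM, and 16 were detected. The maternal median rests on genes classed as imprinted in a single isoform or a few tissues. Without them it was 3.80 RPKM in uterus 1 and 3.73 RPKM in uterus 2. The paternal median was then 4.01 and 2.24 RPKM, so that the order of the classes differed between the uteri. This depends on how Grb10 is classed. With Grb10 kept, the maternal median lies midway between H19 and Meg3. These were at 9.97 and 3.80 RPKM in uterus 1, and at 8.81 and 3.73 RPKM in uterus 2. That midpoint is above the paternal median in both uteri. Among members that overlap no other listed gene, the maternal median was 1.80 RPKM and the paternal 2.75 RPKM, as the mean of the 2 uteri. In uterus 1 the maternal median of this set was 1.44 RPKM and the paternal 3.95 RPKM. In uterus 2 the maternal was the higher, at 2.17 RPKM against 1.55 RPKM. The 4 highest members were all maternally expressed, and the highest paternally expressed value in either uterus was 29.5 RPKM, of Mest.

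**Figure D1:**
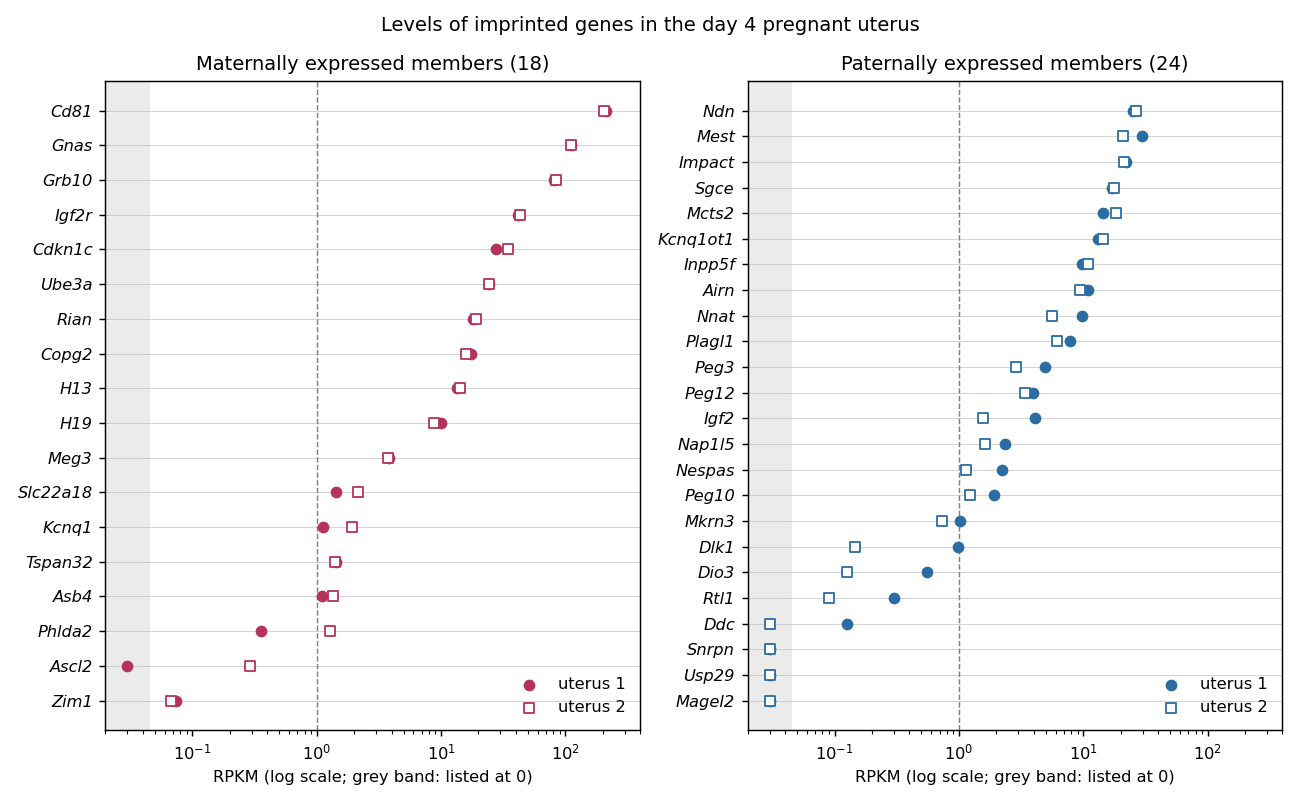
RPKM of each of the 42 members on a log axis, maternally expressed on the left and paternally expressed on the right, with filled circles for uterus 1, open squares for uterus 2, a dashed line at 1 RPKM and a grey band for values listed at 0. Maternally expressed members reach 212 RPKM (Cd81), whereas the highest paternally expressed value is 29.5 RPKM (Mest in uterus 1).

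**Figure D2:**
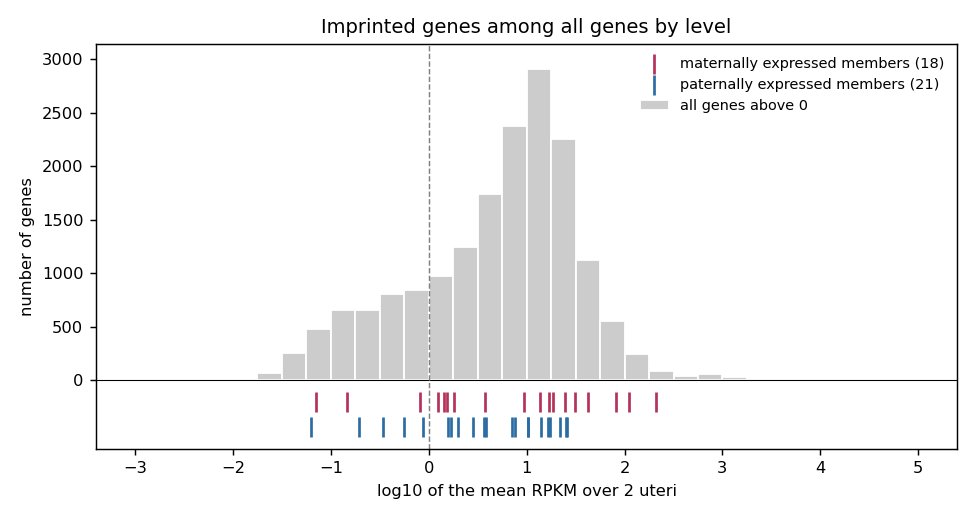
Number of genes by log10 of the mean RPKM over the 2 uteri for all genes above 0 (grey bars), with 1 tick below the axis for each member above 0. The members' ticks run from 0.0624 RPKM (Ddc) to 208 RPKM (Cd81).

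Coordinates below are those of the deposited table on mouse build mm9, counted from 1. The Igf2 system showed a wide gap between ligand and receptor. Igf2 (NM_010514, chromosome 7, 149836673 to 149844709, minus strand), the fetal growth factor, was at 4.06 RPKM in uterus 1 and at 1.55 RPKM in uterus 2. Its clearance receptor Igf2r (NM_010515, chromosome 17, 12875272 to 12962572, minus strand), which carries the ligand to lysosomes, was at 41.4 and 43.5 RPKM. The receptor was above the ligand in both uteri, and the pair did not overlap. Igf1, the related growth factor that is not imprinted, was at 99.9 and 107.6 RPKM, and the signalling receptors Igf1r and Insr were at 11.2 and 9.55 RPKM and at 18.3 and 18.8 RPKM. Of 9 genes listed as Igf2 partners, 7 were detected. Igfbp4 was highest at 361 ± 14.3 RPKM (SD, n = 2), followed by Igfbp5 at 108 ± 5.13 RPKM and Igf1, and Igf2bp1 was listed at 0.

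H19 (NR_001592, chromosome 7, 149761437 to 149764051, minus strand), the non-coding RNA that shares enhancers with Igf2, was at 9.97 and 8.81 RPKM on 100 and 98 reads. H19 was above Igf2 in both uteri. The insulin-like growth factor cluster lies between Nctc1 and Igf2as, both listed at 0 in both uteri.

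Grb10 and Cdkn1c, members that restrain growth, were well above the median gene. Grb10 (NM_001177629, chromosome 11, 11830502 to 11927974, minus strand), an adaptor that dampens insulin and IGF receptor signalling, was at 80.3 RPKM in uterus 1 and at 83.6 RPKM in uterus 2. Cdkn1c (NM_009876, chromosome 7, 150644244 to 150646955, minus strand), the cyclin-dependent kinase inhibitor p57, was at 27.5 and 34.2 RPKM. They stood at percentiles 97.3 and 90.3 of all genes by mean level. Phlda2, a restraint on placental growth, was at 0.354 and 1.28 RPKM on 1 and 4 reads, too few to place. Ddc, the aromatic amino acid decarboxylase next to Grb10, had 1 read in uterus 1 and was listed at 0 in uterus 2.

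In the Kcnq1 cluster the levels of 8 members spanned from Ascl2, the trophoblast transcription factor with 0 and 2 reads, to Cd81, the highest member of all. Cd81 (NM_133655, chromosome 7, 150238655 to 150253835, plus strand), a tetraspanin of the cell surface, was at 212 and 205 RPKM. Its neighbour Tspan32, another tetraspanin, was at 1.43 and 1.42 RPKM, and Slc22a18, a transporter, was at 1.44 and 2.17 RPKM. Members of 1 cluster thus differed by far more than the 2 uteri did for Cd81.

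Kcnq1ot1 (NR_001461, chromosome 7, 150399016 to 150482452, minus strand), the paternally expressed RNA that silences this cluster in cis, was at 13.2 RPKM in uterus 1 and at 14.6 RPKM in uterus 2. The transcript length recovered from its values, 83437 bases, equals its span, so the authors counted it as 1 unspliced RNA. At that length these levels rest on 4213 and 5167 reads, 29.1% and 31.5% of all members' reads. Kcnq1, the potassium channel gene whose introns hold it on the opposite strand, was at 1.12 and 1.94 RPKM on 13 and 25 reads. The use of strand in counting is not given in the sources used here, so reads of overlapping genes on opposite strands may not have been told apart.

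**Figure D3:**
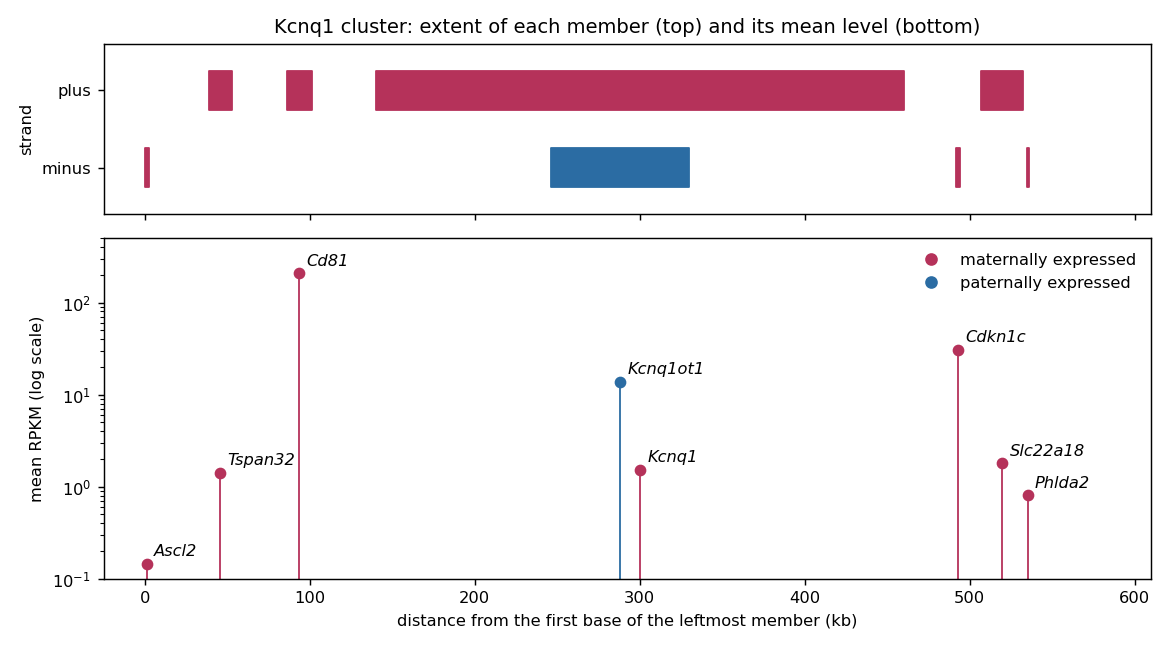
The 8 members of the Kcnq1 cluster by distance in kb from the leftmost member, with their extent on each strand on top and the mean RPKM over the 2 uteri on a log axis below, coloured by parental class. Kcnq1ot1 lies wholly inside Kcnq1 and has a mean of 13.9 RPKM against 1.53 RPKM for Kcnq1, and Cd81 stands highest at 208 RPKM.

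Airn (NR_027773, chromosome 17, 12934177 to 13052750, plus strand), the RNA that silences Igf2r in cis by transcription across its promoter, was at 11.0 and 9.45 RPKM. It overlaps Igf2r by 28396 bases on the opposite strand. The reads recovered for it were 23 and 22, for a counted length of 547 bases, or a common multiple of both, so its level rests on little. Igf2r held 1417 and 1655 reads and was above Airn in both uteri.

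In the Dlk1-Dio3 cluster the maternally expressed RNAs Rian and Meg3 were detected at 1 RPKM in both uteri, and the paternally expressed protein genes Dlk1, Dio3 and Rtl1 were below it in both. Rian (NR_028261, chromosome 12, 110842155 to 110899921, plus strand), host of small nucleolar RNAs, was at 17.9 and 19.2 RPKM on 246 and 292 reads. Meg3 (NR_027651, chromosome 12, 110779206 to 110806810, plus strand), the first RNA of the same domain, was at 3.80 and 3.73 RPKM on 188 and 205 reads. Rian was above Meg3 in both uteri. Dlk1 (NM_010052, chromosome 12, 110691665 to 110701546, plus strand), a membrane protein related to Notch ligands, was at 0.976 and 0.147 RPKM on 18 and 3 reads. Dio3, which inactivates thyroid hormone, had 4 and 1 reads, and Rtl1, a gene derived from a retrotransposon, had 6 and 2. Of the 7 other genes listed inside Rian, short RNAs named by accession, AF357359 held the most reads, 3 and 4. The right neighbour of the cluster, Ppp2r5c, was at 28.8 and 32.2 RPKM.

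In the Snrpn cluster, the mouse counterpart of the Prader-Willi and Angelman region, levels ran from 26.5 RPKM to listed 0s. Ndn, a MAGE family protein that limits cell growth, was the highest paternally expressed member at 24.96 and 26.5 RPKM. Ube3a, the ubiquitin ligase whose paternal copy is silenced in neurons, was at 24.4 and 24.5 RPKM. Peg12 was at 3.95 and 3.38 RPKM, and Mkrn3, a ring finger protein linked to the timing of puberty, at 1.02 and 0.738 RPKM. Magel2, another MAGE gene, and Snrpn, a splicing factor gene, were listed at 0. Snurf, which lies on the same transcript as Snrpn and ends within 10 bases of it, was also at 0. Of the 359 genes with a start or end within 10 bases of that of another listed gene on the same strand, 75.2% were at 0, against 23.4% of all genes. Rpl26, a ribosomal protein gene of every cell, was at 0 too. The 0 of Snrpn is therefore given as listed and not as absence.

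The Mest and Peg3 clusters hold paternally expressed genes known for their role in growth and maternal behaviour. Mest (NM_001252292, chromosome 6, 30688053 to 30698466, plus strand), a hydrolase-like protein, was at 29.5 RPKM in uterus 1 and at 20.7 RPKM in uterus 2. Copg2, a coat protein subunit whose end overlaps Mest by 56 bases on the opposite strand, was at 17.5 and 16.01 RPKM. Peg3 (NM_008817, chromosome 7, 6658671 to 6683130, minus strand), a zinc finger protein, was at 4.88 and 2.87 RPKM. Usp29, whose RefSeq start lies in the Peg3 promoter window printed above and points the other way, was listed at 0 in both. Zim1, the maternally expressed zinc finger gene of this cluster, had 1 read in each uterus.

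Of the remaining protein genes Gnas (NM_201616, chromosome 2, 174155590 to 174172243, plus strand), which encodes the stimulatory G protein alpha subunit, was second highest at 111.1 and 110.6 RPKM. Several Gnas transcripts start at separate promoters with separate imprints, and the table gives them 1 value. Nespas, the antisense RNA of that locus, was at 2.20 and 1.15 RPKM. H13, a signal peptide peptidase, was at 13.5 and 14.1 RPKM, and Mcts2, a retrogene within its intron on the same strand, at 14.4 and 18.3 RPKM. Mcts2 is a copy of another gene, so its reads are uncertain.

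The Peg10 cluster and the genes outside clusters ran from percentile 41.4 of all genes by mean level (Asb4) to percentile 84.6 (Impact). Sgce, the epsilon subunit of the sarcoglycan complex, was at 17.1 and 17.5 RPKM, Peg10, a retrotransposon-derived gene needed for the placenta, at 1.92 and 1.23 RPKM, and Asb4 at 1.11 and 1.36 RPKM. Impact, a regulator of translation, was at 21.96 and 21.4 RPKM, and Inpp5f, a phosphoinositide phosphatase, at 9.79 and 10.9 RPKM. Plagl1, a zinc finger factor that arrests the cell cycle, was at 7.88 and 6.12 RPKM. Nnat, a small membrane protein, was at 9.70 and 5.63 RPKM inside the Blcap gene, which lies on the opposite strand at 13.7 and 14.3 RPKM. Nap1l5 was at 2.34 and 1.61 RPKM inside Herc3 on the opposite strand. In all, 18 of the 42 members overlapped another listed gene.

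The 2 uteri were then compared gene by gene. Log2 ratios put uterus 2 over uterus 1, with 0.1 RPKM added to each value, which understates the change of low genes. Among members with a mean of at least 1 RPKM, 1 of 31 was at least 2-fold apart, Igf2, against 2.60% of all 13647 such genes. Of those 31 members 17 were lower in uterus 2, against 49.9% of all such genes. Their median ratio was -0.01, and that of all such genes was 0.00067. An exact binomial test of the recovered reads, two-sided with Benjamini-Hochberg adjustment over all 15156 genes tested, compares these libraries and not conditions. It called 5 of 34 members tested (14.7%), against 5.02% of all genes. At an unadjusted p under 0.05 there were 9 of the 34, 8 of 19 paternally and 1 of 15 maternally expressed, against 15.9% of all genes. The other 8 members held under 6 reads. With 1 library per animal, a call shows a difference beyond counting error, and animal and library preparation cannot be told apart.

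All 5 called members were paternally expressed, and 4 of the 34 tested were called lower in uterus 2, against 2.71% of all genes tested. Igf2 had a log2 ratio of -1.33 on 66 and 28 reads, with an adjusted p of 0.00064 in the exact binomial test. The smallest reads that fit its values are 33 and 14, and with all genes at their smallest reads the adjusted p was 0.0495. Dlk1 had a log2 ratio of -2.13 on 18 and 3 reads (adjusted p 0.0169, same exact test). Peg3 had a ratio of -0.74 on 124 and 81 reads (adjusted p 0.0071, exact). Mest had a ratio of -0.51 on 314 and 245 reads (adjusted p 0.0016, exact). Kcnq1ot1 was higher in uterus 2, with a ratio of only 0.14 on the most reads of any member (adjusted p 0.00014, exact). Calls depend on depth: a difference of that size in a gene with few reads was not detectable.

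The direction of the difference was also counted by parental class. Of the 21 paternally expressed members above 0, 16 were lower in uterus 2 and 5 higher. Of the 18 maternally expressed members, 7 were lower and 11 higher. Among all 17426 genes above 0, 50.5% were lower in uterus 2. Where the mean reached 1 RPKM, the median log2 ratio was -0.29 over 16 paternally expressed and 0.06 over 15 maternally expressed members. Most single differences were inside counting error, and the difference between the classes was not tested. Markers of uterine cell types also differed between the libraries, in both directions. Of 4 epithelium markers 3 were higher in uterus 2, with a median log2 ratio of 0.26, and the exact binomial test called Krt18, at 70.4 and 94.3 RPKM. Of 4 stroma markers 3 were higher, with a median of 0.06, and the test called Vim higher, at 447 and 522 RPKM, and Col1a1 lower, at 1184 and 851 RPKM. Of 4 smooth muscle markers 2 were higher, and Myh11 was called higher and Acta2 lower. Of 3 endothelium markers 2 were higher, with a median of 0.0045, and Kdr was called lower, at 22.9 and 16.6 RPKM. Of 3 leukocyte markers 2 were higher, with a median of 0.24, and 0 were called by that test. At an unadjusted p under 0.05 in the exact binomial test there were 2 of the 3 leukocyte, 3 of the 4 epithelium, 4 of the 4 stroma, 2 of the 4 smooth muscle and 1 of the 3 endothelium markers, against 15.9% of all genes. Their part in the members' differences was not tested.

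Nnat, with a log2 ratio of -0.77 on 45 and 29 reads, did not pass the same exact test (adjusted p 0.224), and neither did Plagl1 at -0.36 (adjusted p 0.247) or Cdkn1c at 0.31 (adjusted p 0.184). Their 95% counting intervals, not adjusted for the number of genes, were wholly on 1 side of 0, below it for Nnat and Plagl1 and above it for Cdkn1c. The narrowest 95% counting interval of the log2 ratio, taken without the pseudocount, was that of Kcnq1ot1, 0.08 to 0.20, wholly above 0. The next narrowest spanned 0. On the same scale the interval was -0.08 to 0.07 for Gnas, -0.04 to 0.16 for Grb10, -0.03 to 0.18 for Igf2r and -0.16 to 0.06 for Cd81. The intervals cover counting error only.

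**Figure D4:**
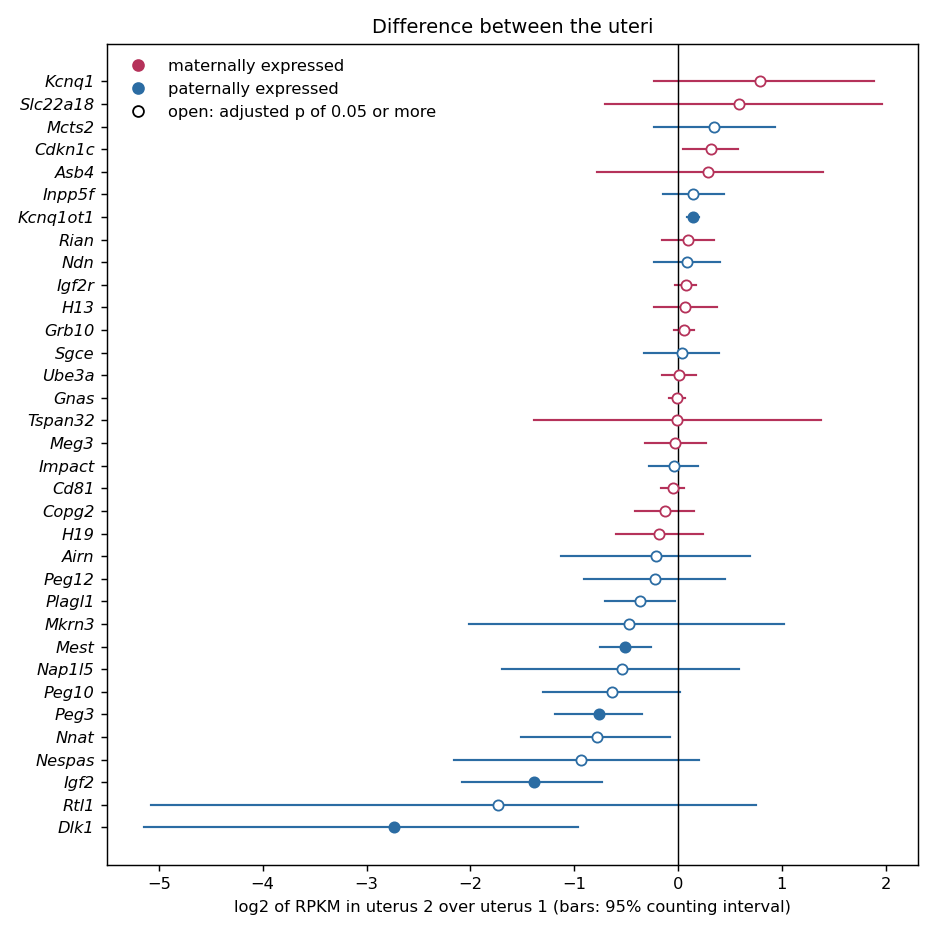
Log2 of RPKM in uterus 2 over uterus 1, without a pseudocount, for the 34 members tested, with bars for the 95% counting interval and filled points for the 5 members with an adjusted p under 0.05. Peg3, Igf2 and Dlk1 lie to the left with intervals wholly below 0, as does Mest, while Kcnq1ot1 lies just right of 0 with a narrow interval. Intervals of Nnat and Plagl1 (below 0) and Cdkn1c (above 0) also leave out 0 among the open points.

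Most genes that maintain imprints lay above the median gene. Of 20 maintenance factors 18 were detected (90.0%), with a median of 26.1 and 25.7 RPKM in the 2 uteri. Trim28 was highest at 89.6 ± 9.79 RPKM (SD, n = 2), followed by the cohesin subunit Smc1a at 49.4 ± 1.07 RPKM and the histone methyltransferase Ehmt2 at 47.8 ± 0.944 RPKM. Zfp57, best known from oocytes and embryos, was at 11.5 and 10.1 RPKM, and Zfp445, a factor of similar function, at 37.0 and 32.5 RPKM. The oocyte and germ cell factor Dppa3 was listed at 0 in both. The exact binomial test called 1 of 19 factors tested, Trim28, lower in uterus 2, a share near the 5.02% of all genes.

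A list of 36 other genes with reported imprinting, 35 of them in the table, gave 23 detected (65.7%) and medians of 3.78 and 3.64 RPKM. Xist, the X inactivation RNA, imprinted in the placenta, was highest at 148 ± 25.7 RPKM (SD, n = 2), followed by Nap1l4 at 56.6 ± 0.956 RPKM and Commd1 at 40.5 ± 4.07 RPKM. The same exact test called 1 of 27 tested, Xist, lower in uterus 2, which is no more than the 5.02% of all genes. Of those above 0, 14 were lower and 15 higher in uterus 2.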

How the data were processed

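RNA of 2 whole uteri was extracted with TRIzol and sequenced from TruSeq libraries, per the labels' protocols. The authors deposited RPKM values, per the labels. TopHat, edgeR and build mm9 are named in the submitters' processing notes, while the annotation and strand use are not given in the sources used here. The table with positions holds 626 further rows, all with symbols that start with Mir, and its values for the other 22740 genes are identical. Deposited starts were read as counted from 0.

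Scaling totals (3834174 and 4256101) were those at which values of single-exon genes became whole reads, 316 of 316 and 321 of 321 values within 0.02 reads. Each value was then written as reads over length in lowest terms (relative tolerance 2e-13). A common factor was applied where the length was further than 0.1 (natural log) from any GENCODE M1 transcript of the gene, for 2661 genes. Reads are therefore exact up to such a factor, and summed to at least 3487503 and 3874963. With the factors applied they summed to 3869782 and 4298903, above the scaling totals. Some reads may therefore be overstated, and the cause was not tested. PCR copies are not independent molecules, so intervals (95%, Clopper-Pearson) cover counting error only.

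The rule that chose the members uses names and no measured value, but members, lists and alternatives were chosen with earlier results of these data known. All members found are named. Of each further list, the 3 highest genes and up to 3 at 0 are named, and other genes of a list only as comparison. Zfp264 was not analysed here. The exact binomial test needed 6 reads in sum and was tested on simulated data. The labels call the mice independent, and p-values measure only the difference between these libraries. Analyses used Python 3.11.15, NumPy 2.4.6, SciPy 1.17.1 and pandas 2.3.3.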

Additional observations from a re-analysis of the deposited data

Results flagged for a closer look

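Mirg, a maternally expressed RNA of the Dlk1-Dio3 cluster that hosts microRNAs, was absent from the main table and present in the table with positions (NR_028265, chromosome 12, 110973191 to 110987667). All 626 rows missing from the main table have symbols that start with Mir, and the main table holds 0 such symbols. Its level was 1.61 RPKM in uterus 1 against 0.724 RPKM in uterus 2, from 8 and 4 reads, above the 3 reads that a count of 0 allows in each library.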

How the results depend on the processing

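The number of detected members, 31, was 32 at 0.5 RPKM, 23 at 2 RPKM and 32 without either replicate. It was 17 among the 24 members that overlap no other listed gene, a smaller set. Without 1 replicate the median RPKM lay between 3.56 and 4.47 for all members, 11.5 and 11.7 for maternally expressed and 2.24 and 4.01 for paternally expressed members, as it must for means of 2. Leaving out members at 0 in either uterus gave 7.91, 13.8 and 5.44 RPKM in that order, by construction upward. Members that overlap no listed gene gave 2.43 RPKM in all, 1.80 RPKM for maternally and 2.75 RPKM for paternally expressed ones. In that set the paternal median was the higher in uterus 1 and the maternal in uterus 2. Leaving out members classed as imprinted in 1 isoform or a few tissues, Grb10 among them, gave 3.77 RPKM for maternally expressed ones. The cause was not tested. The number of members at least 2-fold apart, 1, was 0 with a pseudocount of 1 RPKM and 0 at a mean of 10 RPKM, where no test was made, 6 of 37 at a mean of 0.1 RPKM and 7 of 39 without a filter, against 1421 of 16610 and 1846 of 17426 genes. The median log2 ratio, -0.012, was 0.058 at a mean of 10 RPKM, where 17 members were left. The exact binomial test called 5 members under both alternatives run. Ratios need both libraries, so neither was left out there. No paired analysis was possible because the study has a single group.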

Other observations

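Paternally expressed members at low levels were lower in uterus 2 as a set chosen after their values were seen. Between 0 and a mean of 10 RPKM there were 13 such members (Nnat, Plagl1, Peg3, Peg12, Igf2, Nap1l5, Nespas, Peg10, Mkrn3, Dlk1, Dio3, Rtl1 and Ddc), and 13 of them were lower in uterus 2. Of 9 maternally expressed members in that range 4 were lower, and of all 10115 genes in it 52.4% were. Some of the 13 rest on few reads: Ddc had 1 and 0, Dio3 4 and 1 and Rtl1 6 and 2. The exact binomial test called only Igf2, Dlk1 and Peg3 among them. Just above the range, Airn (mean 10.2 RPKM) was lower in uterus 2 and Inpp5f (mean 10.3 RPKM) was higher. No test of the set was made.

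Inside the spans of the members' clusters the table with positions lists 72 microRNA hairpins other than Mirg, 58 of them in the Dlk1-Dio3 cluster. Reads were found for 20 of the 72, 20 reads in uterus 1 and 23 in uterus 2. The highest single hairpin held 3 reads in uterus 1 and 4 in uterus 2, and 0 hairpins held more than 3 reads in both.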
